A study of Mus musculus with 12 samples.

Results

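The baseline gene expression of 2 mouse cell lines was compared: RAW264.7, a macrophage-like line, and CT-26, a colon carcinoma line that had been primed by RAW264.7 cells. The comparison used 6 of the 12 arrays of the series, chosen by their labels: 3 arrays of RAW264.7 cells carrying the empty knockdown vector PLKO, and 3 arrays of CT-26 cells primed by RAW264.7 cells of the control genotype. The other 6 arrays held RAW264.7 cells with an shRNA against Abhd5 and CT-26 cells primed by those cells, and they entered only as a second set of arrays in which the line difference could be read. No array of CT-26 cells that had not been primed was analysed here, so the CT-26 values describe primed cells. The labels did not say how long or by what contact the cells were primed, whether RAW264.7 cells were removed before RNA was taken, or whether the replicates were grown separately. The p-values below thus measure only the spread between these 3 and 3 samples, and that spread may be technical.

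Macrophages arise from myeloid precursors under transcription factors led by PU.1, the product of Spi1, and depend on CSF1R, the receptor for the growth factors CSF1 and IL-34. They carry Fc receptors, pattern recognition receptors and the adaptors that link them to the kinases of leukocytes, and they release cytokines such as TNF. CT-26 is a chemically induced tumour line of the mouse colon that is often described as undifferentiated; carcinoma cells of that kind can lose epithelial junctions and make matrix, a state in which the coactivators YAP and TAZ (Wwtr1) act through TEAD factors on targets such as Ccn1, Ccn2 and Ankrd1.

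The promoters below are shown because the genes next to them had a large difference between the lines, and because they carry the short sequence that each factor family is known to bind. They were taken from the RefSeq promoter table (build GRCm38.p6), 250 bases upstream of the annotated start, 5′ to 3′ on the strand of the gene, and were chosen after the values of their genes were seen. In the first 3, capitals mark GAGGAAGT or its reverse complement ACTTCCTC, a purine-rich sequence of the kind bound by PU.1. They lie upstream of genes of leukocyte signalling that were higher in RAW264.7 cells: the exchange factor Vav1 (chr17:57278850-57279099, plus strand), the lipid phosphatase Inpp5d (chr1:87620062-87620311, plus strand) and the lipid kinase subunit Pik3cg (chr12:32208471-32208720, minus strand).
Vav1: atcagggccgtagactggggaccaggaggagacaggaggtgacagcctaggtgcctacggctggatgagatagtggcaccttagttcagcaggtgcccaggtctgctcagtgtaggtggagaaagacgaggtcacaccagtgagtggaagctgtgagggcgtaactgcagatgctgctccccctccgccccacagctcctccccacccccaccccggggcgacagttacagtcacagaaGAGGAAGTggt
Inpp5d: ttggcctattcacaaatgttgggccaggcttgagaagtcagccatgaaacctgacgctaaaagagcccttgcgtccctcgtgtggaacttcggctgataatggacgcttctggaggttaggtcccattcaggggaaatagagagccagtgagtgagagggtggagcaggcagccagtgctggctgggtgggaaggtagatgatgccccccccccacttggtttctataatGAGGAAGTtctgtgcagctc
Pik3cg: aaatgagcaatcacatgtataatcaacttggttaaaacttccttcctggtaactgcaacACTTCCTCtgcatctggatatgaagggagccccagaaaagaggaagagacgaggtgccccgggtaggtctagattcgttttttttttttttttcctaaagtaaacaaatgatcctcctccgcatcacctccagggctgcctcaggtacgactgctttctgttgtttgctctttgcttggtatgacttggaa
In the next 3, capitals mark CATTCC or its reverse complement GGAATG, the core bound by TEAD factors. They lie upstream of genes that were higher in CT-26 cells: the matricellular protein gene Ccn1 (chr3:145649986-145650235, minus strand), the ankyrin repeat gene Ankrd1 (chr19:36119845-36120094, minus strand) and the angiomotin family gene Amotl2 (chr9:102717554-102717803, plus strand).
Ccn1: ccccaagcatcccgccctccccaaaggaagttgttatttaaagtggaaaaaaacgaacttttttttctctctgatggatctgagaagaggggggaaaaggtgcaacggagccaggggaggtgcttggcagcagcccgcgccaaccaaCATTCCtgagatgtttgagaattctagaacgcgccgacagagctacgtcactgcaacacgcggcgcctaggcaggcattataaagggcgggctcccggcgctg
Ankrd1: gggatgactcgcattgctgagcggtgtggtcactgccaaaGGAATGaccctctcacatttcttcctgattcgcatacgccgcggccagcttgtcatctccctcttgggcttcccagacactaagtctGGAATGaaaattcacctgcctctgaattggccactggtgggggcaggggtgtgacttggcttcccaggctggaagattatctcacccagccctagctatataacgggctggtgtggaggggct
Amotl2: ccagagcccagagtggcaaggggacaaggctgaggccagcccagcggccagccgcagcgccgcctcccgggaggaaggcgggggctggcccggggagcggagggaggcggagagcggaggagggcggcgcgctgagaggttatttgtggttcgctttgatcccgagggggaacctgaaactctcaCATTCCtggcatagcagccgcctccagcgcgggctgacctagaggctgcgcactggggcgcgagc

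The match lay 11 bases before the start in Vav1, 20 in Inpp5d and 191 in Pik3cg (1 of 2 promoters listed for that gene), counted from the first base of the match. In the second set it lay 103 bases before the start in Ccn1, 65 in Amotl2, and 123 and 210 in Ankrd1, which held 2 matches. GAGGAAGT on either strand was present in 2.44% of all 32851 promoters of this length. It was present in 4 of 32 promoters (12.5%) of the genes listed for leukocyte signalling and cytoskeleton, the fourth being that of the tetraspanin Cd37. CATTCC on either strand was present in 12.6% of all promoters and in 12 of 25 (48%) of those of the genes listed for caveolae and YAP targets. Those 12 promoters belonged to 9 genes, some of which had more than 1 promoter in the table. Over the much larger sets of genes with a large difference the shares were closer to those of all promoters: GAGGAAGT was in 3.94% of promoters of genes higher in RAW264.7 cells and 2.9% of those higher in CT-26 cells, and CATTCC in 12.2% and 13.6%. The list of caveola and YAP target genes was in part made of genes on which TEAD factors act, so its share was not independent of the motif. Presence of these letters describes the sequence only.

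Levels are given on the log2 scale relative to the 75th percentile of the array, so a level of 0 lies at that percentile, and a difference of 1 is 2-fold. Differences are RAW264.7 minus CT-26, so that positive values are higher in RAW264.7 cells. SD is the spread of 3 arrays and SE the standard error of the limma fit. A difference was called large, and a gene is called higher below, where the Benjamini-Hochberg adjusted p of limma was under 0.05 and the difference was at least 4-fold. A gene was tested where at least 1 line had its probe detected (well above background) on all 3 arrays, which held for 25439 genes. A gene detected on every array of one line and no array of the other has a fold written as at least N-fold, a lower bound. It sets the mean of the brighter line against, per array, the higher of the gene's own signal and the lowest signal among probes well above background. Probes differ in brightness, so levels are compared within a gene and not between genes.

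The 2 lines were far apart. The large differences numbered 1799 genes higher in RAW264.7 cells (7.07% of those tested) and 2874 higher in CT-26 cells (11.3%). At a limma adjusted p under 0.05 and any size, 10746 genes had a positive difference and 6412 a negative one. Counts of list members at an unadjusted p, given below, use a looser threshold. The counts of all genes at that threshold would be at least as large as these and were not taken. Correlations between arrays over all probes were 0.974 to 0.985 within RAW264.7, 0.989 to 0.991 within CT-26 and 0.869 to 0.887 between the lines. The median difference of all tested genes was 0.41, so a gene with no difference relative to the others sits near that value. Read relative to that median, the counts became 1272 and 3588, and the share of large differences that were higher in RAW264.7 cells went from 38.5% to 26.2%. The line could not be told apart from the slide: RAW264.7 control replicates 1 and 2 lay on slide 1, replicate 3 on slide 2 and all CT-26 arrays on slide 3. The share of spots well above background was 56.5% and 57.9% on the arrays of slide 1, 72.7% on the RAW264.7 array of slide 2 and 68.3% to 77.3% on the CT-26 arrays. With that RAW264.7 array alone against the 3 CT-26 arrays, 2006 and 3165 genes had a large difference, of which 1659 and 2739 were among those of all 6 arrays.

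**Figure D1:**
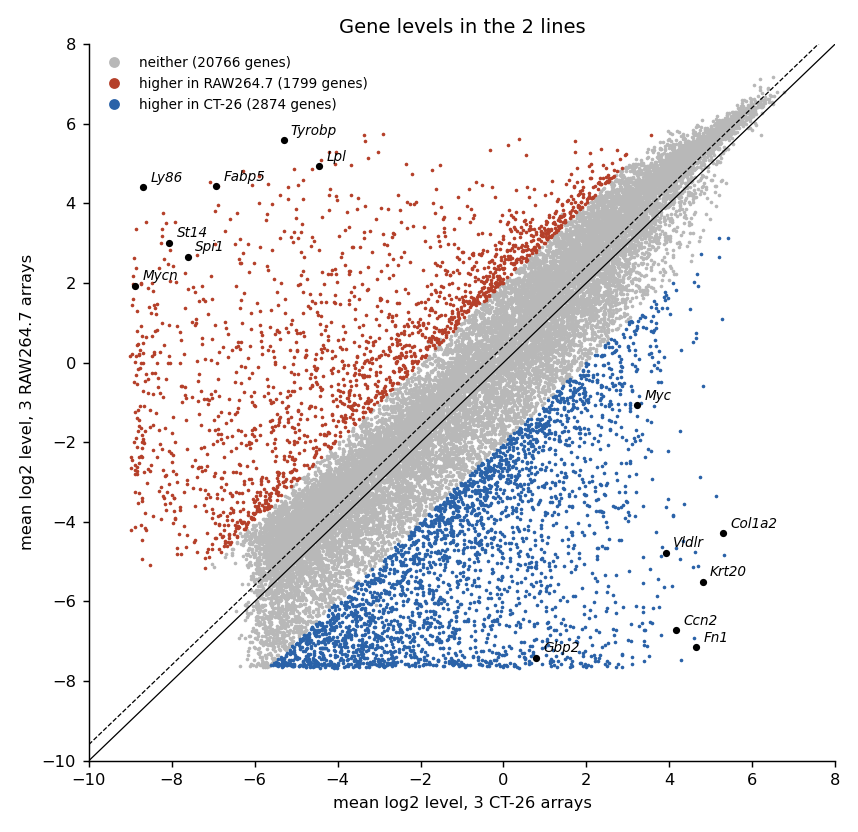
Mean log2 level of each of the 25439 tested genes in the 3 CT-26 arrays (horizontal axis) and the 3 RAW264.7 arrays (vertical axis), relative to the 75th percentile of the array. The solid line marks equal levels and the dashed line the median difference of 0.41; red points are the 1799 genes with a large difference higher in RAW264.7 cells, blue points the 2874 higher in CT-26 cells, and the named genes lie at the 2 outer corners.

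Of the 1799 genes higher in RAW264.7 cells, 1283 were detected on all 6 arrays, and of the 2874 higher in CT-26 cells 1157 were. For the others at least 1 array of the dimmer line was at background. For 6 genes of the first set and 368 of the second the lower bound was under 4-fold, so that their size is set by the fitted value at background.

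Differences were ranked by the probe used, among genes detected on all 6 arrays whose groups did not overlap, with predicted and clone names passed over. The largest was that of Tyrobp, the adaptor DAP12 that carries signals of many myeloid receptors (probe at chr7:31200651-31202378, mm9). Its level was 5.90, 4.78 and 6.07 in the RAW264.7 arrays and -5.83, -4.49 and -5.59 in the CT-26 arrays, a difference of 10.89 (SE 0.44, limma adjusted p = 4.25e-07) or 1898-fold. The SD was 0.70 in RAW264.7 and 0.72 in CT-26 arrays. Lyl1, a basic helix-loop-helix factor of blood cells, differed by 10.15 (SE 0.20), with 4.32, 4.66 and 4.44 against -5.87, -5.77 and -5.38. The other 10 genes of the largest RAW264.7 differences were between 9.33 and 9.60. They were Raet1e, a ligand of the NKG2D receptor, the C-type lectin Clec4d, the troponin subunit Tnni2, the creatine kinase Ckb, the chemokine Ccl3, the G protein subunit Gng2, the betaine transporter Slc6a12, Stxbp2 (a factor of granule exocytosis), the lipoprotein lipase Lpl, and Fcer1g, the common gamma chain of Fc receptors. A second probe for Stxbp2 gave 1.30 against 9.40 for the probe used, so that gene rests on its brightest probe. Other probes gave larger differences for Lpl (12.64), Raet1e (10.46 to 10.83) and Ckb (9.90), so the order depends on the probe.

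In the other direction Col1a2, a chain of type I collagen (probe at chr6:4490619-4490678, mm9), had the largest difference by the same ranking. It read -4.53, -3.97 and -4.37 in the RAW264.7 arrays and 5.36, 5.29 and 5.25 in the CT-26 arrays, a difference of -9.59 (SE 0.20, limma adjusted p = 3.28e-08) or 772-fold. The spread was small in both lines, with an SD of 0.29 in RAW264.7 and 0.05 in CT-26 arrays. The next 11 ran from -8.80 to -6.84. Among them were the membrane protein gene Tm4sf1, the glypican Gpc1, the adhesion protein genes Parva and Pdlim1, the galectin Lgals7 and Fam149a. The others were the growth hormone receptor Ghr, the aldehyde dehydrogenase Aldh3a1, the sialomucin Cd34, the caveolar gene Cavin2 and the macrophage growth factor Csf1. On other probes Cd34 gave -10.31, Csf1 -8.95 to -7.19 and Fam149a -5.63.

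A total of 220 genes were detected on every RAW264.7 array and no CT-26 array, and 1105 genes the other way round. The lowest signal well above background was -4.80 on both slide 1 RAW264.7 arrays and -7.38 to -6.22 on the CT-26 arrays. Detection limits of the lines were thus unlike, and the 2 counts are not on equal terms. A large difference with a bound of at least 4-fold held for 214 of the 220 genes and 498 of the 1105. Ly86, the secreted partner MD-1 of the receptor CD180, read 4.37, 4.51 and 4.33 in RAW264.7 cells and -8.68, -9.11 and -8.29 in CT-26 cells, at least 2246-fold higher in RAW264.7. The fatty acid binding protein gene Fabp5 was at least 2114-fold higher. The next were Bcl2a1d, a relative of BCL2 (at least 1440-fold), Ripk3, a kinase of necroptosis (at least 1221-fold), and the lipid phosphodiesterase gene Smpdl3b (at least 1082-fold). Nrros, which holds latent TGF-beta in macrophages, followed at 1080-fold or more, then the creatine synthesis enzyme Gatm (at least 963-fold) and the membrane protease St14 (at least 857-fold). In CT-26 cells the fibronectin gene Fn1 read 4.65, 4.69 and 4.59 against -6.29, -6.37 and -8.78, at least 1092-fold higher in CT-26. The matrix gene Fbln2 was at least 1052-fold higher, Rpl39l (a relative of a ribosomal protein gene) at least 854-fold and Ccn2 at least 787-fold. Behind these came the caveolar gene Cavin3 (at least 601-fold), the transcription factor gene Osr1 (at least 527-fold) and the calponin Cnn3 (at least 510-fold; its other probes gave differences from -10.54 to -3.87). By the rule that picked these CT-26 genes, none was well above background on a RAW264.7 array.

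The labels of the lines were checked with marker genes. Of 30 listed macrophage markers 26 were tested, and 19 were higher in RAW264.7 cells and 2 in CT-26 cells, with a median difference of 5.40 against 0.41 for all genes. Fcer1g read 5.28, 5.55 and 5.03 against -3.81, -4.0 and -4.32. The pan-leukocyte phosphatase Ptprc (CD45) read 0.46, 0.77 and 0.11 against -2.78, -3.37 and -3.32, and the endosomal glycoprotein Cd68 5.38, 5.92 and 5.39 against 1.77, 1.75 and 1.68. In each of these genes every RAW264.7 array was above every CT-26 array. Laptm5, a lysosomal protein gene of blood cells, had the largest fitted difference of the list at 11.60 (SE 0.54), but it was well above background on only 1 CT-26 array, as were Ctss (11.08), Msr1 (9.18) and Adgre1, which encodes F4/80 (6.13). The fractalkine receptor Cx3cr1 (at least 505-fold), the oxidase subunit Cybb (at least 168-fold) and the inhibitory receptor Sirpa (at least 86.5-fold) were not well above background on any CT-26 array.

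Some macrophage genes did not follow that pattern. The mannose receptor Mrc1 read -0.86, -1.56 and -1.01 in CT-26 cells and was not well above background on any RAW264.7 array, at least 19.8-fold higher in CT-26. Mertk, a receptor for apoptotic cells, was higher in CT-26 by 5.58 on the log2 scale (-5.58 as RAW264.7 minus CT-26) and was well above background on 1 RAW264.7 array. The complement genes C1qa and C1qb differed by 0.66 and 0.91 and were not called, and C1qc, Cd163, Clec7a and Emb were too dim in both lines to be tested. For Csf1r the probe used gave 1.66, while 2 other probes gave 8.79 and 10.53. The integrin Itgam likewise gave 0.64 on the probe used and 3.18 to 6.33 on others. These 2 genes are uncertain by the brightest-probe rule and were counted as not called.

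Because CT-26 cells had been primed by RAW264.7 cells, the level of macrophage genes in CT-26 arrays is given for the whole list. The probes of 19 of the 26 tested markers were detected on each of the 3 CT-26 arrays. The summed linear level of the list, relative to the 75th percentile, was 382 to 435 in RAW264.7 arrays and 57.4 to 63.0 in CT-26 arrays. Bright probes weigh most in that sum, and it includes the uncertain probes of Csf1r and Itgam, so it does not give the level of a single marker. Tyrobp was detected on all CT-26 arrays at a level 1898-fold lower, and Spi1 and Cx3cr1 were not well above background on any of them. The part of RNA from RAW264.7 cells in the CT-26 values was not tested.

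**Figure D2:**
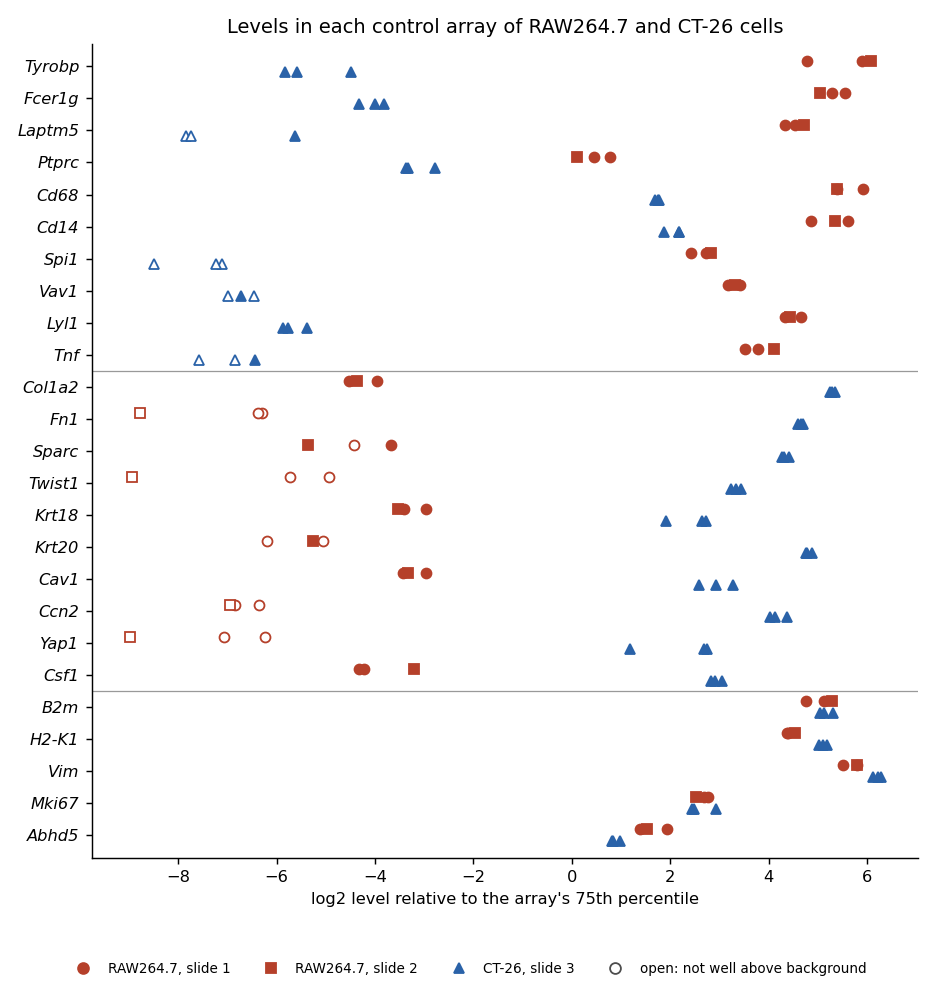
Log2 level relative to the 75th percentile of the array (horizontal axis) for 10 myeloid genes, 10 genes of the CT-26 side and 5 genes at similar levels, one symbol per array. Circles and squares are RAW264.7 arrays of slides 1 and 2, triangles CT-26 arrays of slide 3, and open symbols arrays where the probe was not well above background; in the upper 20 genes no RAW264.7 array overlaps a CT-26 array.

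Genes of the intracellular machinery of leukocytes were mostly higher in RAW264.7 cells. Of 30 listed genes of leukocyte signalling and cytoskeleton 29 were tested, 24 were higher in RAW264.7 cells and 1 in CT-26 cells, with a median difference of 5.26. Coro1a, an actin regulator of leukocytes, read 4.95, 5.46 and 5.02 against -3.20, -3.07 and -3.51. The actin bundling gene Lcp1 read 4.92, 5.38 and 4.63 against -3.68, -4.37 and -4.14. The GTPase gene Rac2 (5.34), the integrin beta chain Itgb2 (4.70) and the phosphatase Ptpn6, which encodes SHP-1 (4.66), were also higher and were measured on all 6 arrays. Inpp5d, which encodes SHIP-1, was at least 156-fold higher. Inpp5d was uneven within RAW264.7 cells, at -1.09, 1.20 and 1.57. Vav1 read 3.18, 3.41 and 3.32 against -6.46, -6.72 and -6.99, and Pik3cg 0.57, 0.36 and 0.30 against -6.19, -6.02 and -7.03; they were detected on 1 and 2 CT-26 arrays. Their promoters are the ones printed above.

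The exception in that list was Cd48, a membrane receptor of the SLAM family, which was higher in CT-26 cells (-4.70, -4.31 and -5.10, detected on 2 arrays, against -0.99, -1.25 and -1.04). A second Cd48 probe gave -3.19. Lcp2 (SLP-76) was not called, at -1.85 on the probe used and 7.33 on another, and its direction is uncertain.

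Of 24 transcription factor genes linked to myeloid cells 21 were tested, 10 were higher in RAW264.7 cells and 2 in CT-26 cells (median 1.52). Spi1 read 2.42, 2.72 and 2.83 in RAW264.7 cells and -7.11, -7.24 and -8.48 in CT-26 cells, at least 649-fold higher. The ETS factor Fli1 (at least 184-fold) was also not well above background on any CT-26 array. The interferon regulatory factors Irf5 (5.98) and Irf8 (5.08) and the granulocyte factor Cebpe (4.24) were higher on all arrays. Bhlhe40 was higher in CT-26 cells, at -0.16, -0.32 and -0.09 against 3.50, 4.0 and 3.80. Several factors used in many lineages were not called: Cebpb differed by 0.52 and Cebpa by 1.52. Runx1 gave 0.64 on the probe used and -1.68 on another.

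Pattern recognition genes were tested in 25 of 28 cases, with 11 higher in RAW264.7 cells and 2 in CT-26 cells. The lipopeptide receptor Tlr2 read 3.49, 3.44 and 3.37 against -2.11, -2.0 and -2.42. Unc93b1, which carries endosomal Toll-like receptors to their compartment, differed by 8.23 (SE 0.20). Ly86, described above, was the largest, followed by the lectins Clec4d (9.59) and Clec4e (at least 108-fold). The adaptor Myd88 differed by 2.20. The endotoxin receptor Tlr4 was not among them, at -1.61, and a second probe gave -2.06; its partner Ly96 differed by 0.56, while the co-receptor Cd14, a macrophage marker, was higher in RAW264.7 cells by 3.20. The RNA sensor Ddx58, which encodes RIG-I, was higher in CT-26 cells (0.57, 0.62 and 0.26 against 2.84, 2.50 and 2.80).

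The inflammasome list held 19 genes, of which 17 were tested, 5 were higher in RAW264.7 cells and 1 in CT-26 cells. Il18 differed by 7.56 and was well above background on 1 CT-26 array. The channel gene Panx1 (5.39), the receptor antagonist Il1rn (4.26) and the sensor Nlrp3 (2.81) were measured on all 6 arrays. A second Nlrp3 probe gave 1.47, below 4-fold. Casp4, which encodes caspase-11, was higher in CT-26 cells by 2.63 on the log2 scale (-2.63). Casp1, Gsdmd and Il1b were not called. Pycard, the adaptor ASC that RAW264.7 cells are known to lack, was too dim in both lines to be tested, as was Il1a. Of the NADPH oxidase genes, 11 of 14 were tested and 3 were higher in RAW264.7 cells, among them the cytosolic subunits Ncf1 (9.30) and Ncf4 (2.09). Cybb, in the marker list, was higher as well, and Cyba, the small membrane subunit that other oxidases share, differed by 1.20.

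Antigen presentation split by class. Of 18 tested genes of the MHC class I pathway none had a large difference by limma, and the median was 0.01. At an unadjusted p under 0.05 and any size, 7 were higher in RAW264.7 cells and 5 in CT-26 cells. Of all 25439 genes, 10746 had a positive and 6412 a negative difference at a limma adjusted p under 0.05, a stricter threshold. The light chain B2m read 5.13, 4.76 and 5.28 against 5.31, 5.13 and 5.04, and the groups overlapped. H2-K1 differed by -0.67 and the peptide transporter Tap1 by -0.01. In the class II pathway 9 of 11 genes were tested, and 5 were higher in RAW264.7 cells. The invariant chain Cd74 read 4.90, 5.07 and 5.03 against -3.0, -2.24 and -1.78. H2-Oa (5.93), H2-Eb1 (4.10, well above background on 2 CT-26 arrays), H2-Ab1 (3.85) and the thiol reductase Ifi30 (3.12) followed. Ciita, the coactivator of class II genes, differed by 0.91. Of 13 tested costimulatory and checkpoint genes, Cd40 (at least 70.9-fold) and Icosl (4.95, detected on 2 CT-26 arrays) were higher in RAW264.7 cells, and Vtcn1 (at least 7.12-fold) and the poliovirus receptor Pvr (-2.11) in CT-26 cells. Cd274, which encodes PD-L1, differed by -1.73 and was not called.

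Of 14 tested complement genes 4 were higher in CT-26 cells and 2 in RAW264.7 cells, with a median of -0.20. C1s1 read -3.24, -3.28 and -3.38 against 1.72, 1.86 and 2.27, and C3 -1.74, -1.52 and -1.72 against 2.46, 2.54 and 2.72. C1ra (-3.80) and C4b (-2.55) went the same way, while properdin (Cfp, 3.55) and the inhibitor Cd59a (4.36) were higher in RAW264.7 cells. C1s1 and C1ra had a large difference in the same direction in the knockdown arrays, and C3 (-0.89) and C4b (-1.40) did not.

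Interferon-stimulated genes were mostly brighter in CT-26 cells. All 28 listed genes were tested, 12 were higher in CT-26 cells and 1 in RAW264.7 cells, with a median of -1.60. The guanylate-binding protein gene Gbp2 read 0.62, 0.77 and 0.95 in CT-26 cells and was not well above background on any RAW264.7 array, at least 75.2-fold higher. Ifit1, an RNA-binding effector, read -4.37, -4.38 and -2.76 against 1.92, 1.95 and 2.16. Ifit3 read -3.11, -3.72 and -2.10 against 1.94, 2.0 and 2.46, and the ubiquitin-like Isg15 1.28, 1.99 and 3.43 against 4.72, 4.70 and 4.60. For Ifit1, Ifit3 and Isg15 the RAW264.7 array of slide 2 was the highest of its group, and with that array alone 10 genes of the list were higher in CT-26 cells. Gbp3 (-6.33) and Oasl2 (-6.45) were well above background on 1 and 2 RAW264.7 arrays. Irf7 (-0.05) and Irf9 (-0.49) were not called. The member higher in RAW264.7 cells was the chemokine Cxcl10, at 1.25, 1.25 and 2.39 against -1.46, -1.34 and -1.51.

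**Figure D3:**
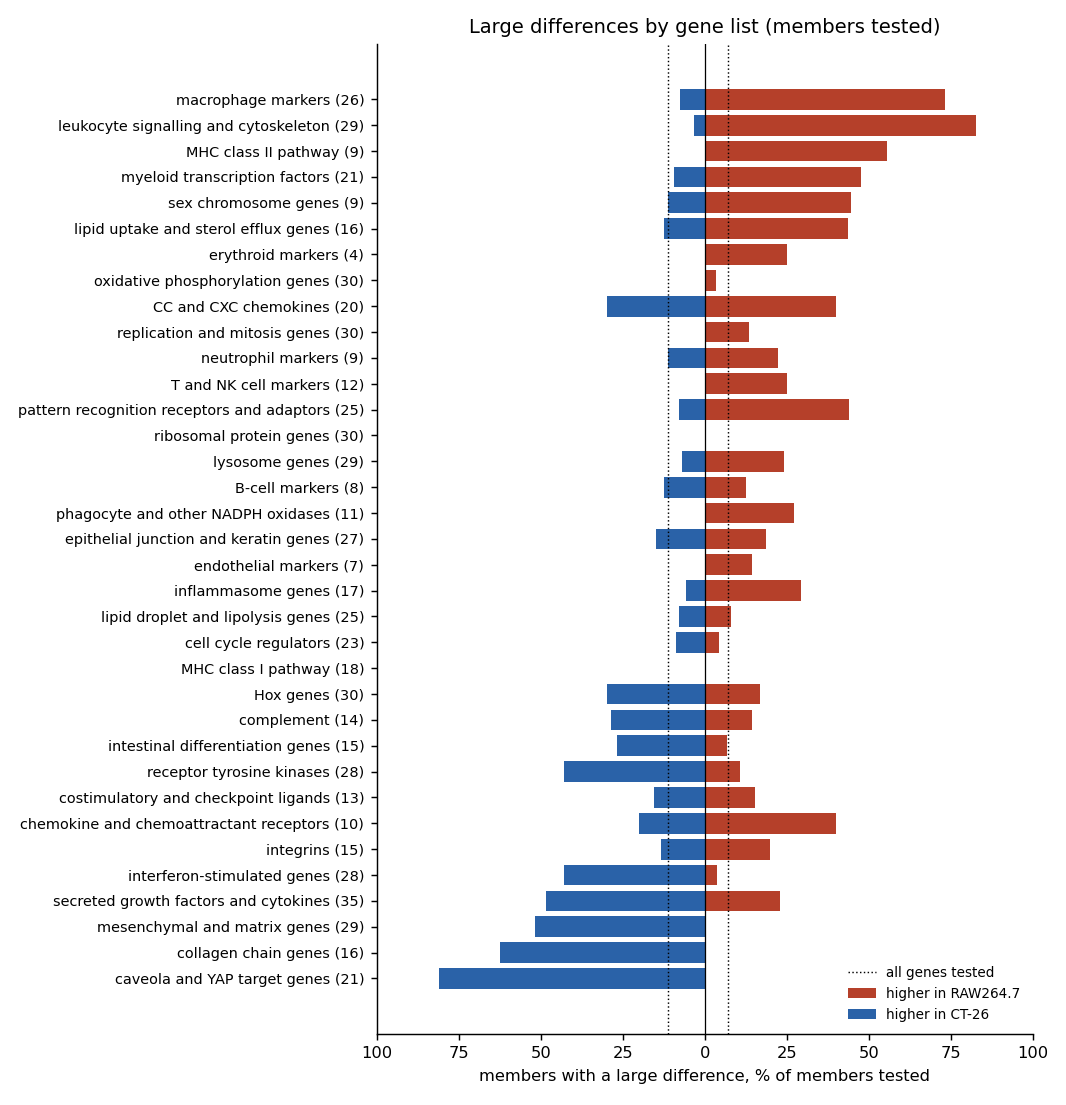
Percent of the tested members of each gene list with a large difference, to the right for members higher in RAW264.7 cells and to the left for members higher in CT-26 cells, with the number tested in brackets and lists ordered by their median difference. Dotted lines mark the 7.07% and 11.3% of all tested genes; leukocyte and macrophage lists reach furthest right, caveola, collagen and mesenchymal lists furthest left, and ribosomal and MHC class I lists have no bar.

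The collagen and mesenchymal genes with a large difference lay on the CT-26 side, most of them not detected on every RAW264.7 array. Of 20 collagen chain genes 16 were tested, 10 were higher in CT-26 cells and none in RAW264.7 cells by limma (1 at an unadjusted p under 0.05 and any size), with a median of -5.82. All 16 were detected on every CT-26 array and 10 on every RAW264.7 array, and 4 of those detected on all 6 arrays were higher in CT-26 cells. Beside Col1a2, the type III chain Col3a1 read -4.0, -3.61 and -4.39 against 2.28, 2.57 and 2.54. The basement membrane chain Col4a1 was at least 238-fold higher in CT-26 and Col8a1 at least 135-fold. Col1a1 (-8.91) and Col5a1 (-8.03) were well above background on 1 RAW264.7 array. The summed level of the list was 6.62 to 7.82 in RAW264.7 arrays and 99.0 to 104 in CT-26 arrays.

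Of 32 mesenchymal and matrix genes 29 were tested, 15 were higher in CT-26 cells and none in RAW264.7 cells by limma (3 at an unadjusted p under 0.05). All 29 were detected on every CT-26 array and 13 on every RAW264.7 array, and of those 13 only 1 was higher in CT-26 cells. The summed level of the list was 175 to 207 in RAW264.7 arrays and 251 to 273 in CT-26 arrays. The median was -2.41, or -1.70 with genes below background in one line set at their bound. Among transcription factors, Twist1 (at least 440-fold), Prrx1 (at least 179-fold) and Zeb1 (at least 57.5-fold) were not well above background on any RAW264.7 array. Twist1 read 3.43, 3.33 and 3.23 in CT-26 cells and was uneven at background in RAW264.7 cells, at -5.72, -4.93 and -8.94. The proteoglycan Dcn (at least 278-fold), the matricellular genes Thbs2 (at least 102-fold) and Sparc (-8.82, well above background on 2 RAW264.7 arrays) and the growth factor receptor Pdgfrb (at least 48.3-fold) were higher too. N-cadherin (Cdh2) read -2.13, -1.52 and -2.21 against 2.78, 3.55 and 3.56. Vimentin, often used as a mesenchymal marker and also made by macrophages, did not separate the lines by that measure: Vim read 5.80, 5.51 and 5.80 against 6.11, 6.28 and 6.22, a difference of -0.50. The smooth muscle genes Acta2 (0.41), Tagln (1.62) and Cnn1 (0.28) were not called.

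The gene lists were chosen with earlier results of these data known. Among them, that of caveola and YAP target genes had the largest share of members higher in CT-26 cells. It was 17 of 21 tested, with none higher in RAW264.7 cells by limma (1 at an unadjusted p under 0.05) and a median of -6.42 (-6.12 at the bounds). All 21 were detected on every CT-26 array and 12 on every RAW264.7 array, and 8 of those 12 were higher in CT-26 cells. Caveolin 1, the main coat protein of caveolae, read -3.44, -2.96 and -3.33 against 2.59, 3.27 and 2.92. Its partner Cavin1 read -1.95, -1.54 and -1.65 against 4.28, 4.26 and 4.26. The coactivators themselves were not well above background on any RAW264.7 array: Yap1 was at least 201-fold higher, at 1.18, 2.69 and 2.74, and Wwtr1 at least 127-fold. Tead3 (at least 52.7-fold) and Tead2 (-6.42) were higher as well. Tead1 gave 0.73 on the probe used and -8.87 to -2.64 on others, so its call is uncertain. Among the targets, Ccn2 read -6.36, -6.84 and -6.95 against 4.02, 4.36 and 4.13. Ccn1 (-8.20, well above background on 1 RAW264.7 array), Ankrd1 (at least 69.4-fold), Axl (-7.90) and Amotl2 (-3.83) went the same way; the promoters of Ccn1, Ankrd1 and Amotl2 are those printed above.

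Epithelial genes did not mark CT-26 cells as a group. Of 35 listed junction and keratin genes 27 were tested, 4 were higher in CT-26 cells and 5 in RAW264.7 cells. Epcam and the E-cadherin gene Cdh1, the defining epithelial markers, were too dim in both lines to be tested, and so were Cldn1, Cldn3, Dsp and Dsc2. The members higher in CT-26 cells included Krt20, a keratin of intestinal epithelium, at 4.78, 4.88 and 4.75 against -6.20, -5.05 and -5.27, a difference of -10.31 (SE 0.30) that rests on detection on 1 RAW264.7 array. Krt18 read -3.41, -2.97 and -3.53 against 1.91, 2.64 and 2.73, and Tjp1, which encodes the junction scaffold ZO-1, was at least 245-fold higher. Krt8, the partner keratin of Krt18, differed by -1.42, was detected on 1 RAW264.7 array and was not called. The members higher in RAW264.7 cells were St14, the plakophilin Pkp2 (5.77), Tjp3 (3.36), and the transcription and splicing factor genes Elf3 (at least 16.4-fold) and Esrp2 (3.32, detected on 2 CT-26 arrays).

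Of 27 listed genes of intestinal differentiation 15 were tested, with 4 higher in CT-26 cells and 1 in RAW264.7 cells. Cdx1, Cdx2, Vil1, Muc2 and Lgr5 were among the 12 that were too dim to be tested. The 4 genes higher in CT-26 cells were the mucin Muc13 (-3.70), the galectin Lgals4 (-2.84), the cadherin Cdh17 (-2.80) and Clca3b (at least 2.85-fold). Carbonic anhydrase 2 was higher in RAW264.7 cells, at 5.40, 5.99 and 5.32 against -3.37, -3.13 and -3.50. Krt20, Krt18 and Cdh17 were thus detected on every CT-26 array, and Krt18 and Cdh17 on every RAW264.7 array as well. E-cadherin, Epcam, Cdx2 and Vil1 were too dim in both lines to be tested.

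The ligands and receptors that the lines could exchange differed in both directions. Of 35 tested genes of secreted growth factors and cytokines, 17 were higher in CT-26 cells and 8 in RAW264.7 cells. Tnf read 3.53, 3.78 and 4.11 in RAW264.7 cells and -6.85, -6.44 and -7.58 in CT-26 cells, where 1 array was well above background, a difference of 10.76 (SE 0.31). Oncostatin M (Osm, at least 32.3-fold), the granulocyte factor Csf3 (7.33, detected on 2 CT-26 arrays), Il10 (at least 9.97-fold), Pdgfb (4.03) and Vegfc (3.59) were also higher in RAW264.7 cells. In CT-26 cells both ligands of CSF1R were higher. Csf1 read -4.22, -4.32 and -3.20 against 2.82, 3.05 and 2.91, and Il34 -0.82, -0.25 and -1.47 against 2.10, 2.57 and 2.56.

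Several members of that list that were higher in CT-26 cells encode ligands of the epidermal growth factor receptor family; they were grouped after their values were seen. Ereg (at least 83.4-fold), Btc (at least 46.6-fold) and Tgfa (at least 17.4-fold) were not well above background on any RAW264.7 array. Nrg1 (-9.05) and Areg (-7.54) were so on 1 RAW264.7 array, and Hbegf read -1.47, -2.04 and -0.53 against 2.65, 2.81 and 2.77. The receptor gene Egfr itself differed by 1.31 and was not called, while Erbb2 was higher in CT-26 cells (-4.32, detected on 1 RAW264.7 array) and Erbb3 in RAW264.7 cells (2.13). Across receptor tyrosine kinases 28 of 34 genes were tested, with 12 higher in CT-26 cells and 3 in RAW264.7 cells. Igf1r (at least 134-fold), Pdgfrb, Axl, the collagen receptor Ddr2 (-6.00) and Met, the receptor of hepatocyte growth factor (at least 9.62-fold), were on the CT-26 side, and the VEGF receptor Flt1 (2.54) on the RAW264.7 side. Fgfr1 gave 0.23 on the probe used and -10.28 to -3.42 on others, so it is uncertain.

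Of 20 tested chemokine genes, 8 were higher in RAW264.7 cells and 6 in CT-26 cells. The macrophage inflammatory protein genes Ccl3 and Ccl4 read 4.67, 4.91 and 4.99 against -4.94, -3.42 and -5.45, and 3.41, 4.03 and 4.12 against -5.25, -4.25 and -5.49. Ccl9 differed by 6.55, and Cxcl2, a neutrophil attractant, by 7.92 with 1 CT-26 array well above background. The neutrophil attractants Cxcl1 (-6.16, detected on 2 RAW264.7 arrays), Cxcl5 (at least 15.5-fold) and Ppbp (at least 12.1-fold) were higher in CT-26 cells. So were the monocyte attractants Ccl2, at -1.16, -0.85 and -0.70 against 1.5, 1.46 and 1.19, and Ccl7 (at least 7.72-fold). Among 10 tested chemoattractant receptors, Cxcr3 (at least 53.3-fold), Cxcr5 (at least 26.1-fold), the receptor of platelet-activating factor Ptafr (at least 11.4-fold) and Ccrl2 (3.39) were higher in RAW264.7 cells. The scavenging receptor Ackr3 (at least 42.7-fold) and Ccr1 (-6.76, detected on 1 RAW264.7 array) were higher in CT-26 cells. Of 15 tested integrin genes, Itga4 (8.40, detected on 2 CT-26 arrays), Itga7 (4.23) and Itgal (2.09) were higher in RAW264.7 cells. Itga3 (-3.86) and Itgav (-3.13) were higher in CT-26 cells. Another probe gave 5.27 for Itgal and -1.68, below 4-fold, for Itgav.

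The study's target, Abhd5, is the coactivator of the lipase ATGL (Pnpla2) on lipid droplets. Its level was 1.38, 1.93 and 1.52 in RAW264.7 cells and 0.98, 0.82 and 0.83 in CT-26 cells, a difference of 0.74 (SE 0.20, limma adjusted p = 0.0116) that was below 4-fold. Every RAW264.7 array was above every CT-26 array, but relative to the median of all genes the difference was 0.33, and 2 other probes gave -1.16 and 1.14, so its direction is uncertain. Of 25 tested lipid droplet and lipolysis genes, the hormone-sensitive lipase Lipe (2.71) and the seipin gene Bscl2 (3.32) were higher in RAW264.7 cells. The droplet coat gene Plin4 (-5.88, well above background on 1 RAW264.7 array) and the acyl-CoA synthetase Acsl4 (-2.31) were higher in CT-26 cells. Pnpla2 (1.20), Plin2 (0.65) and Plin3 (-0.80) were not called.

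Of 16 tested genes of uptake and sterol efflux 7 were higher in RAW264.7 cells and 2 in CT-26 cells. Lpl read 4.83, 5.18 and 4.77 against -4.29, -4.43 and -4.59, and the lipid receptor Trem2 4.62, 5.08 and 4.48 against -2.20 on each CT-26 array. Cd36, a fatty acid and oxidised lipoprotein receptor, was at least 39.1-fold higher in RAW264.7 cells. The sterol transporters were split: Abcg1 was higher in RAW264.7 cells (5.31), and Abca1 was at least 67.3-fold higher in CT-26 cells. The lipoprotein receptor Vldlr read 4.01, 3.86 and 3.86 in CT-26 cells and -4.96, -4.43 and -4.93 in RAW264.7 cells, where 2 arrays detected it. Apoe (-0.02) was not called.

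Of 29 tested lysosome genes, 7 were higher in RAW264.7 cells and 2 in CT-26 cells. They were cathepsins and hydrolases: Ctss, Ctsc (10.52, not well above background on any CT-26 array by that probe), the tartrate-resistant phosphatase Acp5 (4.88), Gusb (4.56, with 1.07 on another probe) and the acid lipase Lipa (3.21) among them. Gpnmb, a lysosomal glycoprotein, was higher in CT-26 cells, at -3.67, -3.20 and -3.10 against 2.06, 2.05 and 1.80. The structural and general genes Lamp1 (0.47), Ctsd (0.65) and Npc1 (-0.01) were not called.

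Of 23 tested cell cycle regulators, 1 was higher in RAW264.7 cells and 2 in CT-26 cells. Mycn, of the MYC family, read 1.87, 1.96 and 1.96 in RAW264.7 cells and was not well above background on any CT-26 array, at least 404-fold higher. Myc read -1.42, -1.45 and -0.34 in RAW264.7 cells and 3.11, 3.37 and 3.19 in CT-26 cells, a difference of -4.29 (SE 0.31). The 2 genes differed in opposite directions, and the other cyclins, kinases and inhibitors were not called except Ccne2 (-2.45, detected on 1 RAW264.7 array). Cdkn2a differed by 1.13 and Trp53 by 1.86. Among 30 replication and mitosis genes, with a median of 0.96, 20 were above CT-26 and 4 below at an unadjusted p under 0.05 and any size, and 4 were higher in RAW264.7 cells by the 4-fold rule (Gins1, Aurkb, Ccnb1 and Ccnb2, by 2.03 to 3.08). Leaving out RAW264.7 replicate 1 left 2 of these. Other probes of Ccnb1 gave 0.13 to 1.63, below 4-fold. The proliferation marker Mki67 differed by 0.04. Of 30 ribosomal protein genes none had a large difference by limma. Their median was 0.65, and 22 were higher in RAW264.7 cells at an unadjusted p under 0.05. Of 30 oxidative phosphorylation genes 1 had a large difference (Sdhd, 2.08). The median of that list was 1.05, and 28 were higher in RAW264.7 cells at an unadjusted p under 0.05. Differences that were positive at a limma adjusted p under 0.05, a stricter threshold, made up 10746 of all 25439 genes, and negative ones 6412.

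Positional and chromosomal genes separated the lines as well. Hox genes encode the factors that set position along the body axis, and lines tend to keep the set of their tissue of origin. Of 39 listed 30 were tested, 5 were higher in RAW264.7 cells and 9 in CT-26 cells. Of the 5, 4 were in the Hoxb cluster: Hoxb7 (0.18, -0.04 and 0.70 against -8.46, -8.41 and -8.42, at least 129-fold), Hoxb13 (at least 49.4-fold), Hoxb4 (6.23, detected on 2 CT-26 arrays) and Hoxb8 (3.90). The remaining gene was Hoxa4 (at least 6.18-fold). In CT-26 cells Hoxa10 (at least 38.5-fold), Hoxa9 (-6.43, detected on 1 RAW264.7 array), Hoxd4 (at least 22.4-fold), Hoxd8 (at least 11.9-fold) and Hoxc6 (-2.10, -1.74 and -2.31 against 2.19, 2.09 and 2.12) led. Neighbours within a cluster were not uniform: Hoxa4 was higher in RAW264.7 cells between Hoxa3 (-3.19) and Hoxa5 (-2.42, detected on 2 RAW264.7 arrays), which were higher in CT-26 cells, and Hoxb9 (-2.86) was higher in CT-26 cells beside Hoxb8.

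**Figure D4:**
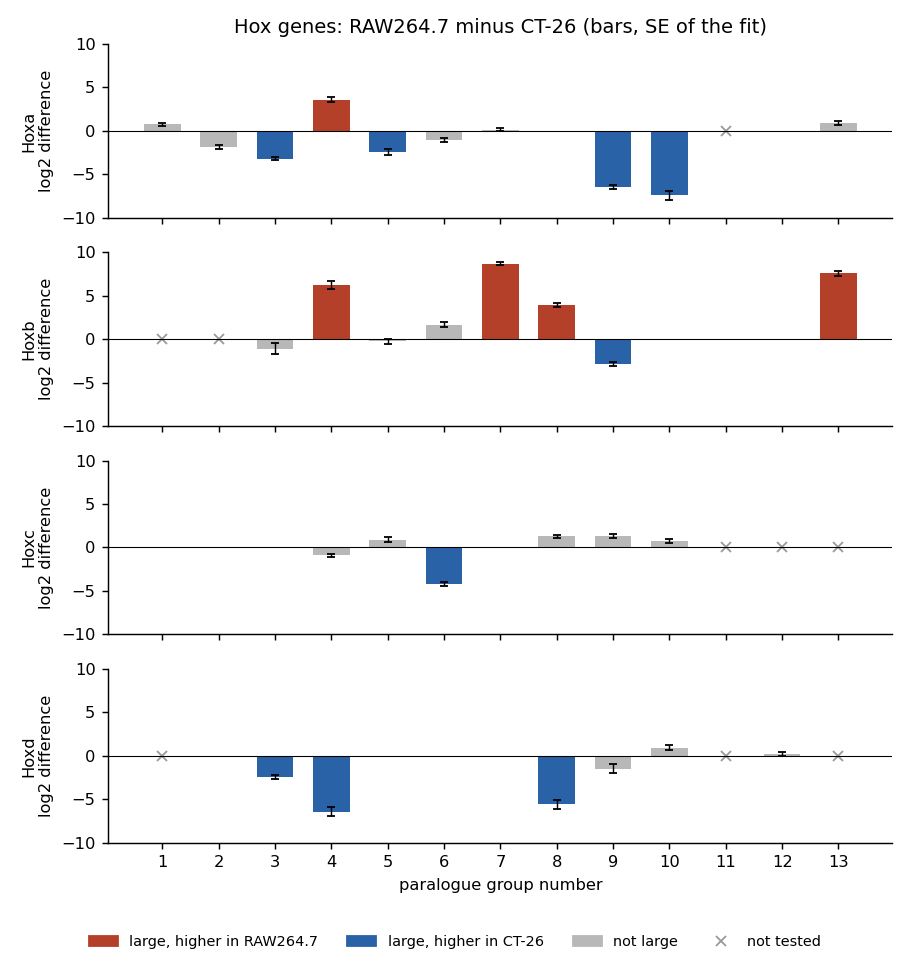
Log2 difference RAW264.7 minus CT-26 (vertical axis, bars with the SE of the fit) for each Hox gene by paralogue group number (horizontal axis), 1 panel per cluster, with grey bars for genes without a large difference and crosses for genes not tested. Red bars (higher in RAW264.7) stand mostly in the Hoxb panel, and blue bars (higher in CT-26) in the Hoxa, Hoxc and Hoxd panels and at Hoxb9.

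The Y-linked gene Eif2s3y read 0.51, -0.28 and 0.26 in RAW264.7 cells and was not well above background on any CT-26 array, at least 119-fold higher. Ddx3y, also Y-linked, was at least 9.46-fold higher. The X-inactivation transcript Xist was low in both lines, at -4.18, -3.70 and -6.17 against -7.51, -5.37 and -8.18 with detection on 1 CT-26 array, and its difference of 2.34 (limma adjusted p = 0.0347) was not called under several alternatives, among them the RAW264.7 array of slide 2 alone (0.86).

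Markers of other cell types were counted in the same way, to be read against 7.07% and 11.3% of all genes. Of 15 listed B-cell and 19 listed T and NK cell markers, 7 of each list were too dim in both lines to be tested. By the testing rule the others were detected on every array of at least 1 line. All 8 tested B-cell and all 12 tested T and NK cell markers were detected on every CT-26 array, and 6 and 11 of them on every RAW264.7 array. Of 8 tested B-cell markers, Cd79b (3.70) was higher in RAW264.7 cells and Vpreb3 (at least 2.17-fold) in CT-26 cells, while Ms4a1 and Cd79a were too dim in both lines to be tested. Of 12 tested T and NK cell markers, Lck (2.32), Cd5 (3.07) and Bcl11b (3.70) were higher in RAW264.7 cells, while Cd3d, Cd8a and Cd2 were not tested for lack of signal. Of 9 tested neutrophil markers, Prtn3 (at least 16.1-fold) and S100a8 (2.63) were higher in RAW264.7 cells and Ly6g (at least 14.1-fold) in CT-26 cells. Of 7 endothelial and 4 erythroid markers tested, Egfl7 (5.13) and Klf1 (2.03) were higher in RAW264.7 cells. The defining endothelial genes Pecam1 and Cdh5 and the erythroid genes Gata1 and Alas2 were likewise too dim to be tested.

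The same line difference was read in the 6 arrays of the knockdown groups, which share no sample with the control arrays, though slide 2 and slide 3 are shared. Of the 1799 genes higher in RAW264.7 cells 1224 (68.0%) were also higher there by the same rule, and of the 2874 higher in CT-26 cells 2016 (70.1%). These shares count as not repeated the genes that were not tested in the knockdown arrays, where 1777 and 2598 were. Of the listed genes, 667 were tested in both sets; 276 had a large difference in the control arrays, and 243 of these had a large one in the same direction in the knockdown arrays. The sign was opposite for 8 of the 276. All 19 macrophage markers, all 10 collagen genes and all 17 caveola and YAP target genes called in the control arrays in the direction of their list were called in the same direction in the knockdown arrays. On the CT-26 side of other lists the counts were 12 of 17 growth factor genes, 2 of 6 chemokine genes, 2 of 4 complement genes, and 0 of 2 in each of the lysosome, myeloid transcription factor and checkpoint lists.

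**Figure D5:**
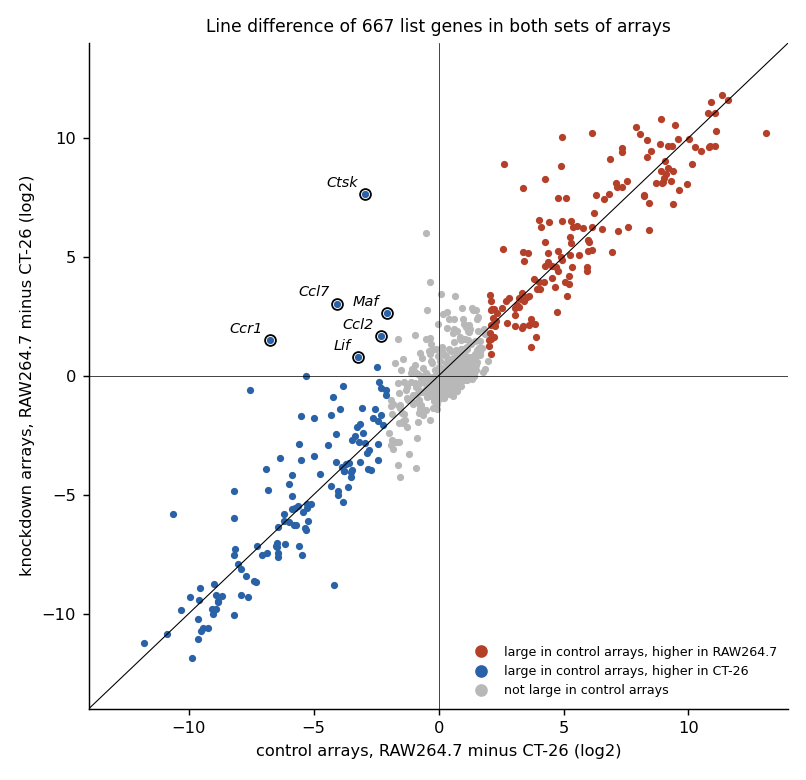
Log2 difference RAW264.7 minus CT-26 of 667 listed genes in the control arrays (horizontal axis) and in the knockdown arrays (vertical axis), 1 point per gene, with the solid line marking equal differences. Red and blue points had a large difference in the control arrays, grey points did not; the 6 circled and named genes lie above 0 in the knockdown arrays and below 0 in the control arrays.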

How the data were processed

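Each of the 12 samples was hybridised to a 1-colour Agilent array (Cy3). The deposited scanner files hold linear spot intensity from Agilent Feature Extraction 10.7.3.1, with probe positions on mm9, per the file headers. The deposited value table held log2 values minus the 75th percentile in its RAW264.7 columns (medians -3.81, -3.53 and -3.90 for controls) and linear intensity in its CT-26 columns (medians 272.6, 276.02 and 274.4), found by setting each column against the scanner signals. The 3 CT-26 control columns each matched another replicate's scanner file of the same group, so replicate numbers within CT-26 are uncertain. The table was used only as an alternative.

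Left out on each array were 3671 control spots and 172 to 272 outlier spots; no spot was saturated. From the log2 processed signal the 75th percentile of the 59305 non-control spots was subtracted, and repeated spots were averaged. Of 55681 probes, 26855 were named through accessions and 4382 through symbols in a RefSeq gene table (GRCm38.p6); 24444 kept the name in the files. Each gene was represented by its brightest probe among those detected on all 3 arrays of at least 1 line. The fit used lmFit and eBayes of limma (version 3.58.1, R version 4.3.3) with two-sided p-values adjusted by Benjamini-Hochberg over 25439 genes. With n = 3 per line, the number of arrays limits the precision. On simulated data the fit was checked to recover known differences.

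Groups came from the labels. The members and gene lists were chosen with earlier results of these data known. The genes named were Abhd5; in each direction the 12 largest differences measured on all 6 arrays and the 8 largest bounds; up to 5 members of each list in each direction; and marker genes bearing on the identity of a line. Predicted and clone names were passed over. The 12 were taken only from genes whose groups did not overlap and that had no missing array value. Other genes, including members that were not called and some beyond 5 per list, were named after their values were seen. Alternatives covered scaling, background correction, dim probes, probe choice, the value table, slide, the fit and each replicate left out. Results for some genes that the rule takes in are not reported here.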

Additional observations from a re-analysis of the deposited data

Results flagged for a closer look

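The line difference, RAW264.7 minus CT-26, was compared between the control arrays and the knockdown arrays by an interaction term in limma over all 12 arrays. For 6 of the listed genes with a large difference in the control arrays the sign turned in the knockdown arrays, with an adjusted p under 0.05 there and for the interaction. Over all genes called in the control arrays and tested in the knockdown arrays, 0 of 1777 higher in RAW264.7 cells had a large opposite difference there. Of the 2598 higher in CT-26 cells 4 did. The 6 genes were picked by these same values, so the interaction p-values describe them and give no separate support. In the control arrays all 6 had a large difference towards CT-26 cells. In the knockdown arrays Ctsk, Ccl7 and Maf had a large difference towards RAW264.7 cells, and Ccl2, Ccr1 and Lif had a positive one below 4-fold. Ctsk, a collagen-degrading cathepsin, went from -2.96 to 7.64, an interaction of -10.59 (SE 0.70, adjusted p = 2.31e-06). Ccr1 went from -6.76 to 1.48 (interaction -8.25, adjusted p = 5.57e-05), and Ccl7 from -4.06 to 3.04 (interaction -7.10, adjusted p = 2.31e-06). Maf went from -2.08 to 2.65 (interaction -4.72), Lif from -3.23 to 0.78 (interaction -4.01) and Ccl2 from -2.29 to 1.66 (interaction -3.95). Ctsk, Ccl7 and Maf were not well above background on any RAW264.7 control array, and Ccr1 was on 1, so their control differences are partly set by background. As lower bounds, Ccl7 was at least 7.72-fold higher in CT-26 control arrays, but Ctsk only at least 2.01-fold and Maf at least 1.46-fold, both under 4-fold. In RAW264.7 cells the mean level of Ctsk was -7.40 in control and 2.88 in knockdown arrays, and that of Ccl2 -0.90 and 5.39. With 3 arrays per group no single array was tested as standing apart.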

How the results depend on the processing

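The counts over all genes stayed within 1.5 times under every alternative but 2: with normexp background correction 1872 genes were higher in CT-26 cells, and among genes detected on all 6 arrays 1157 were, where fewer genes enter by construction. Leaving out 1 array gave 1750 to 1865 genes higher in RAW264.7 cells and 2711 to 3031 higher in CT-26 cells. Same-numbered arrays of the lines did not deviate together (correlations -0.125, -0.32 and 0.09). Other matches of the arrays gave -0.30 to 0.38, the highest for RAW264.7 replicate 2 with CT-26 replicate 1. Replicate numbers within CT-26 are uncertain, so these values cannot decide whether arrays were paired. With the replicate block 1800 and 2877 genes were called and none of the genes named by the rule changed its call. The share of large differences higher in RAW264.7 cells ranged from 26.2% to 52.6%. Of the 200 genes named by the rule that had a large difference, 177 kept it under every alternative that tested them and none reversed. The remaining named gene, Abhd5, stayed below 4-fold. Detection on all 6 arrays tested only 97 of the 201 named genes, so the others could not change under it. The 200 were named for large differences in these same arrays, so their stability is no separate support. Using the lower bound and reading against the median of all genes were chosen after seeing the data. Where a count or median below moved, the cause was not tested, except that the filter on all 6 arrays tests fewer genes and no filter more.

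Counts of list members that moved are given here as genes higher in RAW264.7, then CT-26 cells. Median centring gave cell cycle 2 and erythroid 2, then myeloid transcription factors 1, checkpoint 1 and sex chromosome 0. Quantile normalization gave replication 1, oxidative phosphorylation 0 and erythroid 2 in RAW264.7. Normexp gave oxidative phosphorylation 0, then myeloid transcription factors, pattern recognition, lysosome and cell cycle 1 each and B-cell 0. No filter gave intestinal 2, receptor tyrosine kinases 5, cell cycle 2, B-cell 2 and endothelial 3 in RAW264.7. Detection on all 6 arrays gave macrophage 12, myeloid transcription factors, pattern recognition and chemokines 5 each, lysosome 4, inflammasome and growth factors 3 each, epithelial 2, chemoattractant receptors, sex chromosome, Hox and neutrophil 1 each, and checkpoint and cell cycle 0. In CT-26 it gave caveola 8, interferon-stimulated 7, growth factors 6, receptor tyrosine kinases 5, collagen 4 and Hox 3. It gave 1 each for mesenchymal, myeloid transcription factors, pattern recognition, checkpoint, lysosome, lipid droplet, epithelial, chemokines and cell cycle, and 0 for macrophage, leukocyte, lipid uptake, chemoattractant receptors, B-cell and neutrophil. The mean of probes gave integrins 4 in CT-26. The RAW264.7 array of slide 2 alone gave cell cycle, oxidative phosphorylation, sex chromosome and erythroid 2 each, then cell cycle 1 and replication 2. The lower bound gave myeloid transcription factors, pattern recognition and lysosome 1 each and B-cell 0 in CT-26. Relative to the median of all genes there were receptor tyrosine kinases 1, replication 1, oxidative phosphorylation 0, sex chromosome 2 and erythroid 0, then leukocyte 2, checkpoint 4, integrins 4, replication 2 and sex chromosome 2. Leaving out 1 array gave in RAW264.7 replication 2 to 5, cell cycle 1 to 2, oxidative phosphorylation 0 to 1 and erythroid 0 to 1, and in CT-26 replication 0 to 1, sex chromosome, checkpoint and myeloid transcription factors 1 to 2.

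Some list medians changed sign. The inflammasome median was -0.28 and the lysosome median -0.0023 with quantile normalization. Chemoattractant receptors had 0.19 with normexp, 1.73 with no filter, 0.15 on all 6 arrays and 0.075 at the lower bound. Checkpoint genes had 0.43 with no filter, 0.50 with the slide 2 array alone and from -0.69 to 0.31 with 1 array left out, above 0 without RAW264.7 replicate 2. Integrins had 0.24 with no filter, receptor tyrosine kinases 0.13 with no filter and 0.13 on all 6 arrays, sex chromosome genes -0.37 on all 6 arrays, and lipid droplet genes -0.15 relative to the median. Signal over background limits the folds of dim genes: the lowest signal well above background was -4.80 on both slide 1 arrays, -6.75 on slide 2 and -7.38 to -6.22 on the CT-26 arrays.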
